A study of Arabidopsis thaliana with 6 samples.

Results

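The 35 nuclear genes described here encode the light-harvesting antennae (LHCA and LHCB), the Rubisco small subunit (RBCS) and Rubisco activase (RCA), exposed subunits of both photosystems (PSAD1, PSAE1, PSBO1, PSBP1), plastocyanin (PETE1, PETE2), enzymes of chlorophyll synthesis (HEMA1, GUN4, CHLH, PORB, PORC) and the GOLDEN2-LIKE regulators GLK1 and GLK2. They were taken by their locus codes from a table of 31305 loci, and all 35 codes carry the intended names in the TAIR10.1 annotation. In this callus 22 of the 35 reached a mean level of 1 TPM (transcript abundance per length, scaled to a common library total) over the 6 libraries and were kept for testing, and 13 did not. The genes formed a low and uneven set: LHCA4, HEMA1, LHCB1.5, LHCB1.3 and LHCB4.1 averaged above 10 TPM, 17 averaged 1 to 10 TPM, and RBCS1B, RBCS2B and PETE1 were listed at 0 in every library. None of the 22 differed between the genotypes past an adjusted p of 0.05, a threshold that 0.0698% of all 18629 kept genes passed.

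In photosynthesis, antenna proteins bind chlorophyll and pass excitation to photosystems II and I, electrons move between the photosystems through a cytochrome complex and plastocyanin, and ferredoxin hands them to NADP for the carbon-fixing cycle that begins with Rubisco. Most of these proteins are encoded in the nucleus, and in leaves their transcripts are induced by light and by GLK factors and are among the most abundant messages of the cell. Callus forms from pericycle-like cells by a programme resembling that of lateral root founders, and its plastids are commonly pale or non-green until shoots are induced.

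The samples were calli grown from hypocotyl explants of Arabidopsis thaliana. Seedlings were 1 week old when cut, and the explants stayed on callus-inducing medium for 7 days. Wild-type Col-0 gave 3 libraries, and the genotype labelled rap2.12-2 gave 3. RAP2.12 belongs to the group VII ethylene response factors, proteins stabilised by low oxygen. The series calls the replicates of each genotype biological, and neither the nature of the allele nor the light given to the culture is stated in the sources used here. RAP2.12 itself (AT1G53910) had 123, 140 and 161 TPM across the Col-0 replicates, against 360, 363 and 465 TPM under the label rap2.12-2. The transcript was higher in each of those 3 libraries than in any Col-0 library (log2 difference 1.48, SE 0.17, limma adjusted p = 0.026; exact two-sided permutation p = 0.10, the smallest that 3 against 3 allow), so directions below refer to libraries as labelled and not to a loss of RAP2.12 RNA.

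How deeply each library was sequenced is unknown from TPM, and only the spread among replicates measures error. A pair of libraries stood apart. Col-0 replicate 1 summed to 845341 TPM over the table against 984523 to 992724 TPM in the others, and its organelle loci summed to 12005 TPM against 157 to 537 TPM. In the library labelled rap2.12-2 replicate 1, transcripts of at least 2321 bases had a median deviation of -0.50 from the gene mean on the log2(TPM + 1) scale and transcripts up to 1220 bases one of 0.17, while in the other 5 libraries these medians lay between -0.07 and 0.16 and between -0.23 and 0.02. In bulk RNA, fewer cells of a type and less RNA per cell cannot be told apart.

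Callus and root founder markers were present, as the tissue label says: 7 of 8 were kept, among them PLT1 at 110 ± 11.6 TPM in Col-0 and 107 ± 23.1 TPM in rap2.12-2 (SD, n = 3 each), SHR, SCR and WOX5. Markers of green or shoot cell types were low: of the stomatal lineage and guard cell list, SPCH and SLAC1 (OZS1 in the reference) were listed at 0 in all 6 libraries, MUTE and FAMA (FMA) were above 0 in 1 library each, and only MYB60 was kept, so the list summed to 2.25 to 4.66 TPM in Col-0 against 2.04 to 2.83 TPM in rap2.12-2. In the shoot meristem list CLV3 was at 0 throughout, WUS was above 0 in 1 library, and STM and CLV1 were kept, with sums of 4.12 to 5.59 and 4.13 to 6.32 TPM. All 5 xylem markers were kept, and their sum was 157 to 197 TPM among Col-0 libraries and 248 to 266 TPM in rap2.12-2. The proteases XCP1 (94.3 ± 11.8 and 133 ± 5.58 TPM) and XCP2 (62.1 ± 7.57 and 91.5 ± 4.96 TPM) carried that sum and did not overlap between genotypes. IRX1, IRX3 and VND7 overlapped, VND7 with a log2 difference of -0.09, and none of the 5 was called (lowest limma adjusted p = 0.39). Among the other marker lists, STM was higher and WOX5 lower in rap2.12-2 without overlap. Over all kept genes, 6.62% were higher and 6.03% lower without overlap. The part of these cell types in the values below was not tested.

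**Figure D1:**
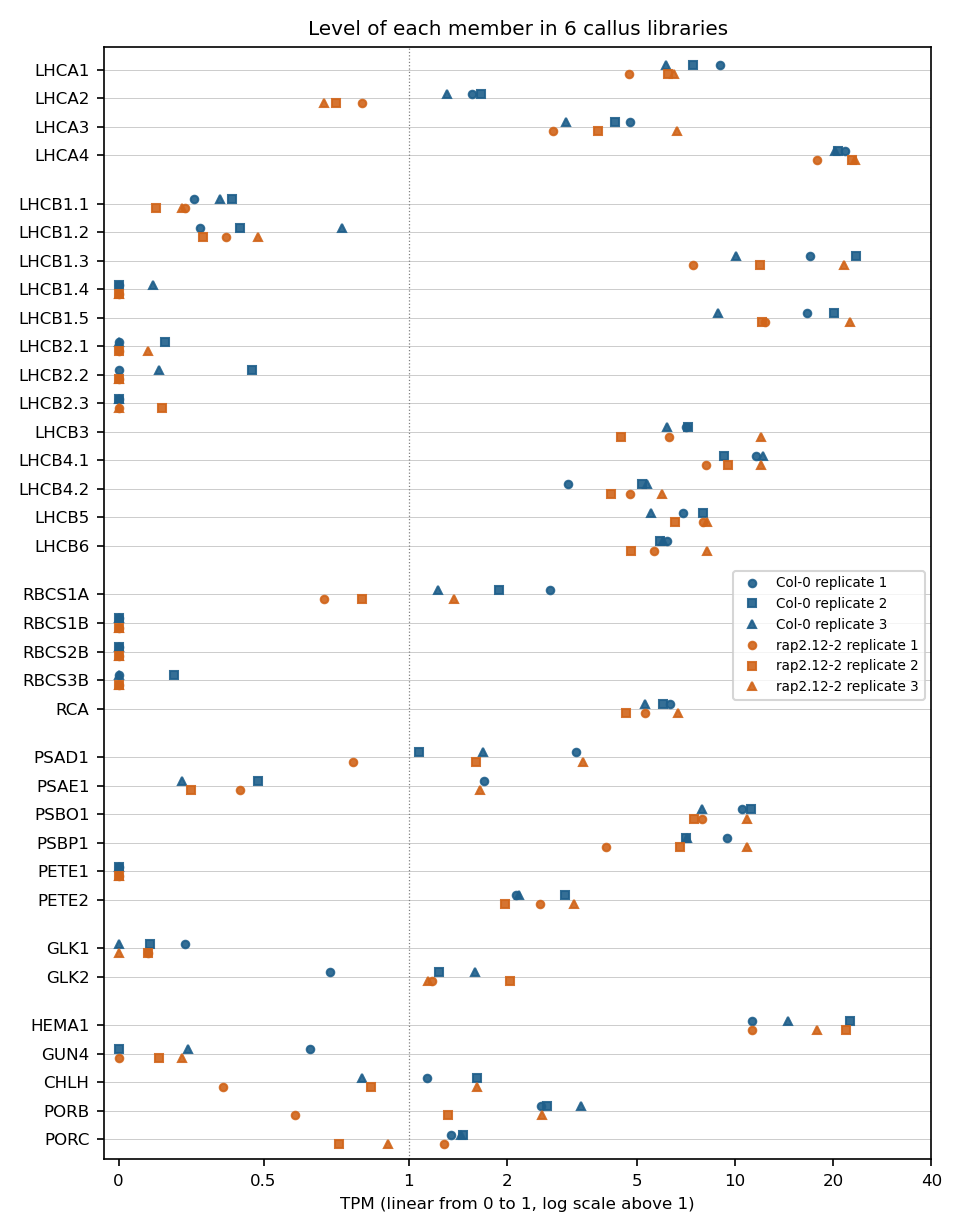
TPM of each of the 35 genes in each library, on an axis that is linear from 0 to 1 and logarithmic above. Blue points are the 3 Col-0 libraries and orange points the 3 rap2.12-2 libraries, and the dotted line marks 1 TPM. Antenna genes spread from 0 to above 20 TPM within a family, and the colours intermix for nearly every gene.

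Of the regulators, GLK1 was near 0 and GLK2 close to the filter. GLK1 (AT2G20570), which with GLK2 switches on antenna and chlorophyll synthesis genes, was listed at 0.23, 0.11 and 0 TPM in Col-0 and at 0.10, 0.10 and 0 TPM in rap2.12-2. GLK2 (AT5G44190) had 0.73, 1.24 and 1.60 TPM in Col-0, compared with 1.18, 2.05 and 1.15 TPM in rap2.12-2. GLK2 made up 93.6% of the GLK total, and its groups overlapped (log2 difference 0.17, SE 0.31, 95% interval -0.53 to 0.87, limma adjusted p = 0.92). Of 17 other regulators of light response and greening, 12 were kept and 0 were called. The GATA factors GNC and CGA1, which promote greening beside GLK, were listed at 0 in every library, whereas the photoreceptor PHYA, among the kept ones, averaged 162 ± 27 TPM in Col-0 and 186 ± 40.4 TPM in rap2.12-2. GUN1, a plastid protein of plastid-to-nucleus signalling, had 62.8, 72.1 and 67.7 TPM in Col-0 against 29.3, 68.3 and 62.2 TPM in rap2.12-2, where the low value came from replicate 1 (log2 difference -0.42, SE 0.29, limma adjusted p = 0.85). COP1, a ubiquitin ligase that represses light responses in the dark, averaged 23.4 ± 3.33 and 18.5 ± 5.075 TPM, again lowest in rap2.12-2 replicate 1 at 12.6 TPM (limma adjusted p = 0.85).

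The chlorophyll synthesis genes differed by step. HEMA1 (AT1G58290) encodes glutamyl-tRNA reductase, the first committed enzyme of all tetrapyrroles. Its transcript was at 11.3, 22.6 and 14.5 TPM in Col-0 and at 11.3, 21.9 and 17.8 TPM in rap2.12-2, nearly the same range in both groups (log2 difference 0.08, SE 0.30, 95% interval -0.61 to 0.77, limma adjusted p = 0.97). CHLH (AT5G13630, GUN5), the porphyrin-binding subunit of magnesium chelatase, had 1.14, 1.62 and 0.84 TPM among Col-0 libraries and 0.36, 0.87 and 1.62 TPM in rap2.12-2. GUN4 (AT3G59400), which stimulates that chelatase, was listed at 0.66, 0 and 0.24 TPM and at 0, 0.14 and 0.22 TPM. Only 28.1% of the 50-base words of GUN4 are unique to it in the annotation, because it lies 946 bases deep in the opposite strand of GCN2 (8.56 TPM), and whether the counting used strand is not given in the sources used here.

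The light-dependent protochlorophyllide reductases PORB and PORC, which carry out the step that needs light, were both lower on average in rap2.12-2. PORB (AT4G27440) was at 2.55, 2.66 and 3.38 TPM in Col-0 and at 0.61, 1.32 and 2.57 TPM in rap2.12-2, so that the groups overlapped through rap2.12-2 replicate 3 alone. Its means were 2.86 ± 0.451 and 1.5 ± 0.992 TPM (SD, n = 3 each), and its log2 difference of -0.70 (SE 0.34, 95% interval -1.46 to 0.07) was the lowest of the 22 kept members and did not pass (limma adjusted p = 0.78). Without rap2.12-2 replicate 1 it was -0.42, behind LHCA2 (-0.54) and RBCS1A (-0.46), and with a pseudocount of 0.1 TPM it was -1.08. PORB overlaps AT4G27450 on the opposite strand by 71 bases, and that gene was listed at 965 to 1797 TPM. PORC (AT1G03630) had 1.35, 1.47 and 1.45 TPM in Col-0, compared with 1.28, 0.76 and 0.93 TPM in rap2.12-2, with every rap2.12-2 value under every Col-0 value. Its log2 difference was -0.29 (SE 0.28, 95% interval -0.92 to 0.34, limma adjusted p = 0.88).

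Laid out along the pathway, the low levels belonged to the chlorophyll branch. The 13 genes of the shared steps, from glutamyl-tRNA synthetase to protoporphyrinogen oxidase, had means over the 6 libraries of 9.01 to 37.8 TPM with a median of 21.5 TPM, and 12 of them were above 10 TPM. The 4 genes of the haem and bilin branch had a median of 31.01 TPM, led by the ferrochelatase FC1 at 55.0 TPM and the haem oxygenase HY1. The 15 genes of the chlorophyll branch, CHLH, GUN4, PORB and PORC included, had a median of 3.11 TPM, with 11 under 5 TPM and 4 above 10 TPM. Those 4 were the chelatase subunits CHLI1 and CHLD, the methyltransferase CHLM and YCF54, a factor of the cyclase step. Within the chelatase, CHLI1 exceeded CHLH by 8.05 to 59.4 times in single libraries, the highest ratio in rap2.12-2 replicate 1, where CHLH was lowest. CHLH is a long transcript, and the part of the length bias of that library in this ratio was not tested.

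**Figure D2:**
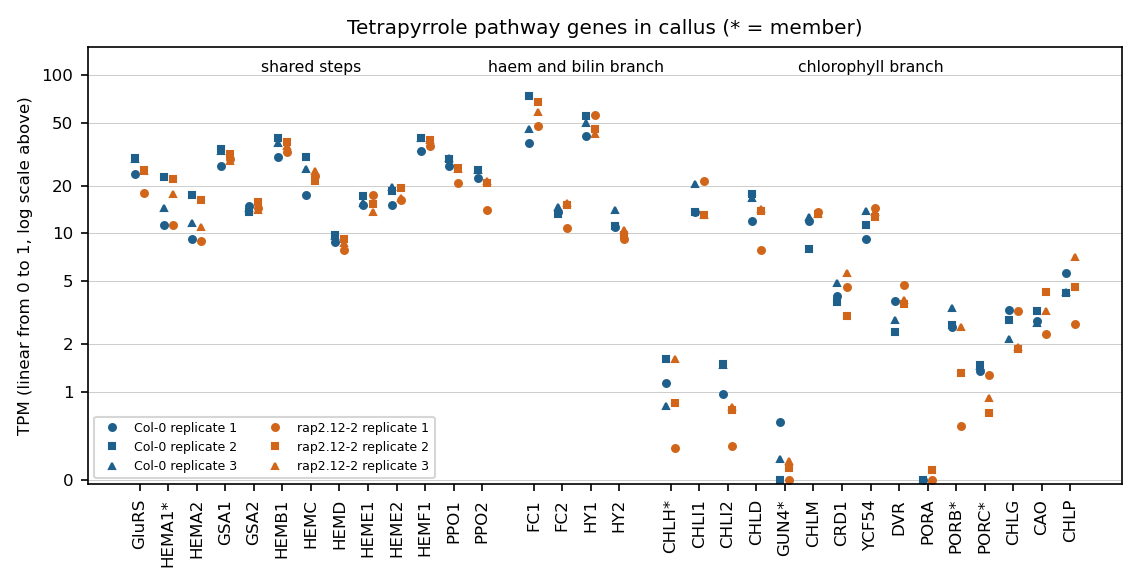
TPM of 32 tetrapyrrole synthesis genes in pathway order, 1 point per library, with Col-0 in blue and rap2.12-2 in orange. The shared steps and the haem and bilin branch lie near or above 10 TPM, and most of the chlorophyll branch lies under 5 TPM in both genotypes.

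None of the other 28 genes of this pathway was called, of 26 kept, with 9 differences positive and 17 negative and a median of -0.03. The smallest p of the list was that of HEMG2 (PPO2), a protoporphyrinogen oxidase, at 24.3 ± 1.61 TPM in Col-0 and 18.8 ± 4.11 TPM in rap2.12-2 (log2 difference -0.37, SE 0.20, limma adjusted p = 0.81). Its groups did not overlap, nor did those of PPOX (PPO1, 28.6 ± 1.69 and 24.1 ± 2.81 TPM) or of HY2, phytochromobilin synthase (12.1 ± 1.72 and 9.83 ± 0.588 TPM). CHLM had the reverse order, at 10.9 ± 2.58 and 13.4 ± 0.254 TPM (log2 difference 0.30, SE 0.21, limma adjusted p = 0.85), and CHLI2, under the filter, was lower without overlap at 1.32 ± 0.298 and 0.667 ± 0.249 TPM. Of the 26 kept genes 3 were thus lower and 1 higher without overlap, where the shares over all kept genes were 6.03% and 6.62%. HEMA2, a HEMA1 paralogue, followed HEMA1 closely in level: the ratio of HEMA1 to HEMA2 was 1.23 to 1.29 in Col-0 and 1.26 to 1.62 in rap2.12-2.

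Among the photosystem I antennae, LHCA4 was high and LHCA2 low. LHCA4 (AT3G47470), a chlorophyll-binding protein of the photosystem I belt, was at 21.8, 20.7 and 20.3 TPM in Col-0 and at 17.9, 22.8 and 23.4 TPM in rap2.12-2. Its mean of 21.1 TPM was the highest of the 35 and the only one above the median of all 18629 kept genes, 19.6 TPM. The genotypes overlapped (log2 difference 0.02, SE 0.17, 95% interval -0.37 to 0.41, limma adjusted p = 0.98). LHCA1 (AT3G54890) had 9, 7.46 and 6.15 TPM in Col-0 against 4.75, 6.25 and 6.51 TPM in rap2.12-2 (log2 difference -0.32, SE 0.22, limma adjusted p = 0.85). LHCA3 (AT1G61520) had 4.77, 4.28 and 3.03 TPM among Col-0 libraries and 2.77, 3.81 and 6.66 TPM in rap2.12-2, where the highest and the lowest value of all 6 came from the same genotype.

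LHCA2 (AT3G61470) was at 1.56, 1.67 and 1.31 TPM in Col-0 and at 0.84, 0.75 and 0.71 TPM in rap2.12-2. All 3 rap2.12-2 values lay below all 3 Col-0 values, with little spread in either group, and the means were 1.51 ± 0.184 and 0.767 ± 0.0666 TPM. On the log2(TPM + 1) scale, which understates differences of low genes, the difference was -0.51 (SE 0.27, 95% interval -1.13 to 0.12) and did not pass (limma adjusted p = 0.82). LHCA4 exceeded LHCA2 by 12.4 to 15.5 times in Col-0 and by 21.2 to 33.0 times in rap2.12-2. With LHCA4 at similar means in both genotypes, that ratio restates the LHCA2 values. LHCA2 passed the filter through its Col-0 mean alone, and 6.03% of all kept genes were lower without overlap. The LHCA total was 34.0 ± 3.18 TPM in Col-0 and 32.4 ± 5.64 TPM in rap2.12-2.

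Of the 5 LHCB1 genes, which encode the main protein of the light-harvesting trimers of photosystem II, a pair supplied 97.7% of the family's TPM. LHCB1.3 (AT1G29930, also called CAB1) had 17.01, 23.5 and 10.1 TPM in Col-0, compared with 7.46, 11.97 and 21.5 TPM in rap2.12-2. LHCB1.5 (AT2G34420) had 16.7, 20.1 and 8.87 TPM in Col-0 against 12.4, 12.1 and 22.5 TPM in rap2.12-2. In both genes Col-0 replicate 3 was the lowest Col-0 library and rap2.12-2 replicate 3 the highest rap2.12-2 library, and the genotypes overlapped widely. Their log2 differences were -0.33 (SE 0.39, 95% interval -1.22 to 0.56, limma adjusted p = 0.89) and 0.05 (SE 0.33, 95% interval -0.70 to 0.81, limma adjusted p = 0.98).

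The other members were near 0. LHCB1.1 (AT1G29920) had 0.26, 0.39 and 0.35 TPM among Col-0 libraries and 0.23, 0.13 and 0.22 TPM in rap2.12-2, all lower than in Col-0 but under the filter. LHCB1.2 (AT1G29910) had 0.28 to 0.77 TPM in Col-0, compared with 0.29 to 0.48 TPM in rap2.12-2. LHCB1.4 (AT2G34430) was listed above 0 in 1 library only, at 0.12 TPM in Col-0 replicate 3. LHCB1.3 exceeded the sum of its neighbours LHCB1.1 and LHCB1.2 by 9.01 to 31.5 times. The family total was 34.2, 44.4 and 20.2 TPM in Col-0 against 20.4, 24.5 and 44.7 TPM in rap2.12-2, or 32.9 ± 12.1 and 29.9 ± 13.01 TPM.

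These levels depend on how reads were divided among near-identical copies. LHCB1.1, LHCB1.2 and LHCB1.3 sit side by side on chromosome 1 with coding sequences of 804 bases, which differ at 29 to 35 positions between any pair (95.6% to 96.4% identity). Of their 50-base words, 79.5%, 89.4% and 78.0% are unique to each gene. The first 90 coding bases, from the TAIR10.1 genome with RefSeq annotation, are shown because they hold 9 of the 47 positions at which the genes differ, in capitals, and so show how much sequence can assign a read to 1 copy.
LHCB1.1 coding bases: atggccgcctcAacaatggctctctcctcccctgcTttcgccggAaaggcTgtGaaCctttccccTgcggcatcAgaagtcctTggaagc
LHCB1.2 coding bases: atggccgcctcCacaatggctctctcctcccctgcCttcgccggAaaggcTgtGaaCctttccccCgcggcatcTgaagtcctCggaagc
LHCB1.3 coding bases: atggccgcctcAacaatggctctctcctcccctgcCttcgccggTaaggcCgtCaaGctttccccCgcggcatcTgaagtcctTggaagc
LHCB1.5 lies wholly inside AT2G08665, an opposite-strand gene overlapping it by 1045 bases and listed at 0 to 0.18 TPM, so none of its 50-base words is unique. It also overlaps RWA3 (23.3 TPM) on the opposite strand by 99 bases. Its own level of 8.87 to 22.5 TPM is given as the deposited table assigns it, and whether that assignment used strand is not known. In all, 9 of the 35 genes overlap an opposite-strand gene, among them LHCB1.3 with NRPA2 (108 bases, 49.2 TPM) and LHCB3 with ATM2 (186 bases, 41.5 TPM), and their values are uncertain to that extent.

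The regions before these genes differ far more than the coding sequences: between any 2 of the 5 LHCB1 genes, the 250 bases upstream of the annotated start were 43.9% to 55.4% identical. They were searched on both strands for CACGTG (the G-box) and GATAAG (the I-box core), both known from light-regulated promoters, and for CCAATC, a sequence known from genes that respond to GLK. LHCB1.3 and LHCB1.5, the copies above the filter, each held CCAATC, starting 91 and 89 bases before the annotated start, and LHCB1.1, LHCB1.2 and LHCB1.4 held none of the 3 motifs. The 5 regions are printed to set the copies above and near 0 TPM side by side, followed by LHCA4, the highest of the 35 genes, and LHCB2.3, a gene near 0 TPM that holds the same motifs. Each runs 5′ to 3′ towards the gene and ends at the base before its annotated start in TAIR10.1, and capitals mark motif matches on either strand.
LHCB1.3 upstream, chr1:10477635-10477884, plus strand: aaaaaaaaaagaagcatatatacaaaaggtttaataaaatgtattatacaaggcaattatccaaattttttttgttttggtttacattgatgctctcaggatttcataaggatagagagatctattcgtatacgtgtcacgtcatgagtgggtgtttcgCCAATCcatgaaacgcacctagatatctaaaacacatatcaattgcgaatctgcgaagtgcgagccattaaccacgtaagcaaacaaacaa
LHCB1.5 upstream, chr2:14523569-14523818, minus strand: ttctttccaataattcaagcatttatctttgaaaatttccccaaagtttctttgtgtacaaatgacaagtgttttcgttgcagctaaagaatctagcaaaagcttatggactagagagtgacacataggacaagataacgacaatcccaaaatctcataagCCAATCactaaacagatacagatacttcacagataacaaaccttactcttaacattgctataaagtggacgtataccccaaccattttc
LHCB1.1 upstream, chr1:10475970-10476219, minus strand: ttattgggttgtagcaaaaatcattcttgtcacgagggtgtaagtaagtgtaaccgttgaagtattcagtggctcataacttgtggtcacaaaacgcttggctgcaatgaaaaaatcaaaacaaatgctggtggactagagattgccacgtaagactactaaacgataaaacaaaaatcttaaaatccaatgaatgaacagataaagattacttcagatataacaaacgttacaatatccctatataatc
LHCB1.2 upstream, chr1:10473503-10473752, minus strand: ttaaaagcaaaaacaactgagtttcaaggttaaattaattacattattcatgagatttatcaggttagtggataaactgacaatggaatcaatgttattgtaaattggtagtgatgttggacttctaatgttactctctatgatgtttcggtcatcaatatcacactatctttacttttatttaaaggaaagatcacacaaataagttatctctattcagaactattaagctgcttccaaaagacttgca
LHCB1.4 upstream, chr2:14524357-14524606, plus strand: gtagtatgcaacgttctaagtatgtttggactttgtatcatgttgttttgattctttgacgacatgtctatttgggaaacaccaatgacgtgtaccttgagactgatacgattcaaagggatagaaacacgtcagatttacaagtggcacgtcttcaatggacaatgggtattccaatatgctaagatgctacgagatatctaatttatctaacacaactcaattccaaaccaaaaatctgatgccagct
LHCA4 upstream, chr3:17495034-17495283, minus strand: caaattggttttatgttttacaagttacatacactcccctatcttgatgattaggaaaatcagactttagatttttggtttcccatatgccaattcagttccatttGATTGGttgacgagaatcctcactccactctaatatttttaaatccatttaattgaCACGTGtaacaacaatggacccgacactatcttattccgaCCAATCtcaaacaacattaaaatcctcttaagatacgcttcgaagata
LHCB2.3 upstream, chr3:10255656-10255905, plus strand: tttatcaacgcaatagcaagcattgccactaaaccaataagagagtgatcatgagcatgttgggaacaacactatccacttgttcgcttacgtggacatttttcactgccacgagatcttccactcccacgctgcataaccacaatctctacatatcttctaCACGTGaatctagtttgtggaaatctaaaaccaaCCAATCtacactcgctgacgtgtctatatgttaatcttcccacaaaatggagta
LHCA4 and LHCB2.3 each held a G-box at 88 bases and CCAATC as well, yet they averaged 21.1 TPM and 0.025 TPM. Over the 35 genes, CCAATC occurred in 14 regions (40%) against 10.2% of 27443 upstream regions of the same length in the genome. GATAAG occurred in 9 (25.7%) against 12.3%, and CACGTG in 5 (14.3%) against 6.49%. Among genes above the filter 10 of 22 held CCAATC, and among those under it 4 of 13. A match is a description of letters only, and family members share ancestry.

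The LHCB2 genes, which encode a partner of LHCB1 in the trimers, were near 0. LHCB2.1 (AT2G05100), LHCB2.2 (AT2G05070) and LHCB2.3 (AT3G27690) were listed above 0 in 2, 2 and 1 libraries, at no more than 0.46 TPM, with LHCB2.3 overlapping AT3G27700 (16.9 TPM) on the opposite strand by 595 bases. Their sum was 0, 0.62 and 0.14 TPM among Col-0 libraries and 0, 0.15 and 0.10 TPM in rap2.12-2. LHCB3 (AT5G54270), the third protein of the trimers, was instead at 7.09, 7.19 and 6.19 TPM in Col-0 and at 6.29, 4.47 and 12.1 TPM in rap2.12-2. Here too rap2.12-2 replicate 3 was above every other library (log2 difference 0.04, SE 0.31, limma adjusted p = 0.98).

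The minor antennae, which link the trimers to the photosystem II core, were all kept and were even in level. LHCB4.1 (AT5G01530, CP29) had 11.6, 9.28 and 12.2 TPM in Col-0, compared with 8.13, 9.55 and 12.1 TPM in rap2.12-2 (log2 difference -0.15, SE 0.21, limma adjusted p = 0.90). LHCB4.2 (AT3G08940) ranged from 3.08 to 5.38 TPM and from 4.17 to 6 TPM, LHCB5 (AT4G10340, CP26) from 5.53 to 8 TPM and from 6.57 to 8.19 TPM. LHCB6 (AT1G15820, CP24) had 6.20, 5.88 and 6.03 TPM in Col-0, the tightest group of any kept antenna gene relative to its level, and 5.65, 4.79 and 8.22 TPM in rap2.12-2. Its log2 difference was 0.01 (SE 0.23, 95% interval -0.52 to 0.54, limma adjusted p = 0.996). The minor antennae and LHCB3 each averaged 4.77 to 10.5 TPM, so each was more abundant per length than all LHCB2 copies together.

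Rubisco transcripts were lower than those of its activase. RBCS1A (AT1G67090), in leaves a leading small-subunit gene, was at 2.71, 1.89 and 1.23 TPM in Col-0 and at 0.71, 0.84 and 1.38 TPM in rap2.12-2. The means were 1.94 ± 0.741 and 0.977 ± 0.355 TPM, and rap2.12-2 replicate 3 lay inside the Col-0 range (log2 difference -0.56, SE 0.31, 95% interval -1.27 to 0.15, limma adjusted p = 0.83). Without both replicates 1, an alternative chosen after seeing the data, the difference was -0.28. RBCS1B (AT5G38430) and RBCS2B (AT5G38420) were listed at 0 in all libraries and RBCS3B (AT5G38410) at 0.19 TPM in Col-0 replicate 2 only, so RBCS1A made up 97.9% of the family. The B copies are 94.1% to 97.3% identical to each other in coding sequence and 87.7% to 90.1% identical to RBCS1A. RCA (AT2G39730), which frees Rubisco of bound inhibitors, had 6.33, 6.02 and 5.29 TPM in Col-0 against 5.32, 4.64 and 6.68 TPM in rap2.12-2 (log2 difference -0.08, SE 0.21, limma adjusted p = 0.95). RCA exceeded the RBCS total by 2.34 to 4.30 times in Col-0 and by 4.84 to 7.49 times in rap2.12-2. That ratio largely restates the values of RBCS1A, which passed the filter through its Col-0 mean alone.

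Of the 4 photosystem subunits among the 35 genes, PSBO1 and PSBP1 of the oxygen-evolving complex were the highest. PSBO1 (AT5G66570), the manganese-stabilising protein, was at 10.5, 11.2 and 7.95 TPM in Col-0 and at 7.92, 7.47 and 10.9 TPM in rap2.12-2 (log2 difference -0.16, SE 0.22, limma adjusted p = 0.90). PSBP1 (AT1G06680), another protein of that complex, had 9.49, 7.10 and 7.12 TPM among Col-0 libraries and 4.04, 6.79 and 10.9 TPM in rap2.12-2 (log2 difference -0.19, SE 0.31, limma adjusted p = 0.91). For both genes rap2.12-2 replicate 3 was in or above the Col-0 range and the other rap2.12-2 replicates were below it.

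The stromal photosystem I subunits, where ferredoxin docks, were lower and more variable. PSAD1 (AT4G02770) had 3.26, 1.08 and 1.69 TPM in Col-0, compared with 0.81, 1.61 and 3.43 TPM in rap2.12-2, with the widest error of the kept genes (log2 difference -0.06, SE 0.41, 95% interval -0.99 to 0.87, limma adjusted p = 0.98). PSAE1 (AT4G28750), under the filter, had 1.70, 0.48 and 0.22 TPM in Col-0 against 0.42, 0.25 and 1.65 TPM in rap2.12-2. Both peaked in Col-0 replicate 1 and rap2.12-2 replicate 3. Of the plastocyanins, PETE2 (AT1G20340) had 2.14, 3.01 and 2.18 TPM and 2.53, 1.97 and 3.22 TPM (log2 difference 0.05, SE 0.26, limma adjusted p = 0.97), and PETE1 (AT1G76100) was listed at 0 throughout.

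Between the genotypes, 0 of the 22 kept genes passed an adjusted p of 0.05 in limma, and 0 were under an unadjusted p of 0.05. Over all 18629 kept genes 0.0698% passed the first threshold and 6.84% the second. Differences of the 22 were negative for 12 and positive for 10, with a median of -0.07 on the log2 scale, against a median of -0.02 and 53.3% negative over all kept genes. The adjusted p values ran from 0.784 to 0.996, and the standard errors from 0.17 to 0.41. Every rap2.12-2 value lay below every Col-0 value for LHCA2 and PORC, 2 of 22, where the share over all kept genes was 6.03%, and none had the reverse order, where that share was 6.62%. LHCA2, RBCS1A, CHLH and PORC reached a mean of 1 TPM in Col-0 but not in rap2.12-2, so they had to be lower in rap2.12-2, and these counts support no direction.

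**Figure D3:**
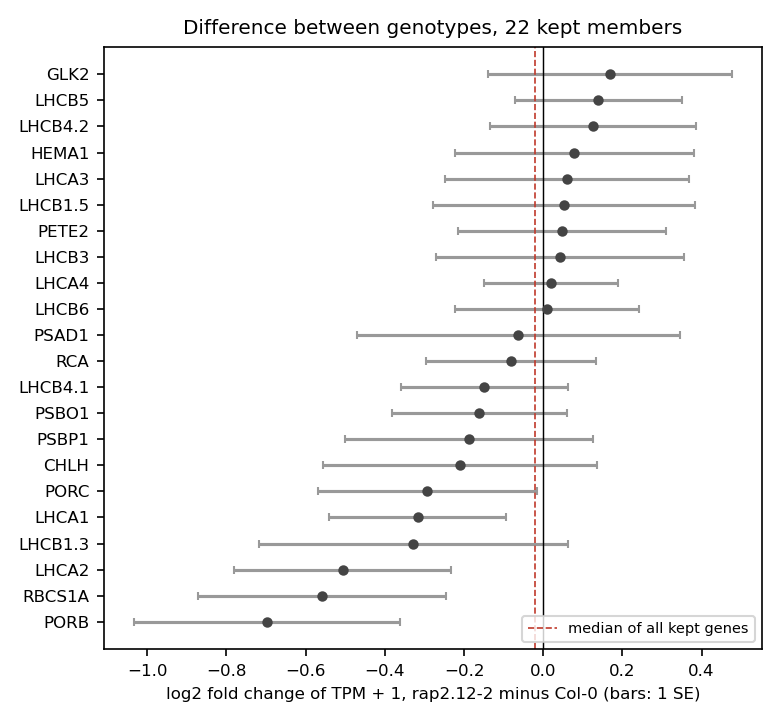
Log2 difference (rap2.12-2 minus Col-0, log2(TPM + 1) scale) of the 22 kept genes with standard errors from limma, in order of the difference. The estimates run from -0.70 (PORB) to 0.17 (GLK2), and none passed an adjusted p of 0.05.

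Much of the spread between libraries was shared across genes. The 35 genes summed to 160, 175 and 134 TPM in Col-0 and to 116, 139 and 191 TPM in rap2.12-2. Of the 22 kept genes, 11 had their highest value in rap2.12-2 replicate 3 and 10 their lowest in rap2.12-2 replicate 1. Replicate 3 of rap2.12-2 was above replicate 1 for 19 of 22 genes and above replicate 2 for 19 of 22, with median differences of 0.47 each, whereas the medians of all kept genes for the same pairs were 0.19 and -0.05. Relative to each gene's mean, the median of the 22 was 0.14, 0.15 and -0.08 in the Col-0 libraries and -0.23, -0.18 and 0.23 in the rap2.12-2 libraries. The range between replicates of rap2.12-2 was thus larger than the difference between genotypes.

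The median of the 22 moved with single libraries, and with 1 left out its sign changed only without rap2.12-2 replicate 1. Without rap2.12-2 replicate 3 it was -0.28, with 18 of 22 negative, while the median of all genes was -0.04. Without rap2.12-2 replicate 1 it was 0.05, with 8 of 22 negative, while that of all genes was 0.06. With organelle genes removed and the rest rescaled to equal library totals, 18 of 22 were negative (median -0.14), while the median of all genes moved to -0.10. The rescaling also raised Col-0 replicate 1, whose table summed to 845341 TPM with 12005.5 TPM of it organelle. That setting therefore does not isolate organelle genes. No member was called under any of the 16 alternatives.

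**Figure D4:**
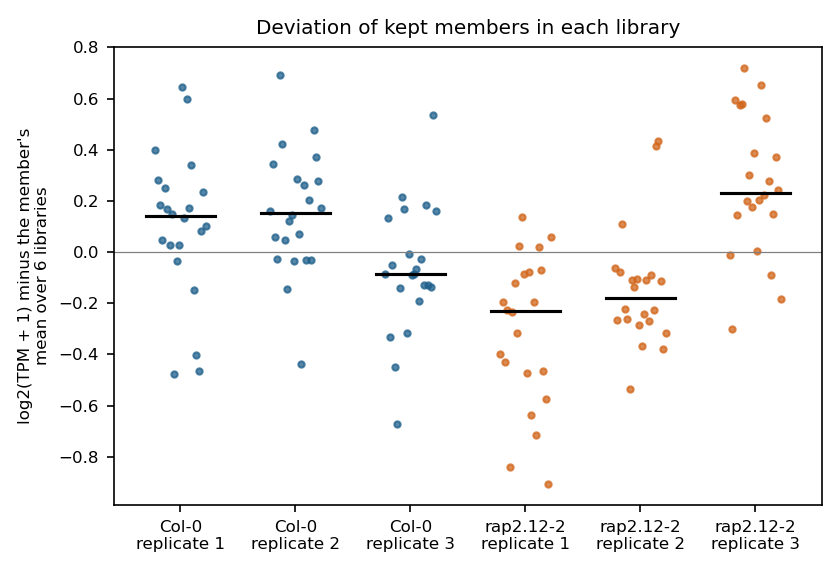
Deviation of each kept gene from its mean over the 6 libraries on the log2(TPM + 1) scale, by library. Points are the 22 genes and bars their medians, which run from -0.23 in rap2.12-2 replicate 1 to 0.23 in rap2.12-2 replicate 3.

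Other nuclear photosynthesis genes also varied in level, and 0 of them were called. Means over the 6 libraries reached 14.4 TPM in the photosystem I list and 11.5 TPM in the photosystem II list. In the lists of thylakoid electron transport and of the Calvin cycle they reached 41.6 and 233 TPM. Of 13 other photosystem I genes 10 were kept, 4 with positive and 6 with negative differences (median -0.10). PSAF (AT1G31330), a subunit near the plastocyanin site, had 11.6, 10.1 and 11.2 TPM among Col-0 libraries and 6.53, 6.74 and 9.71 TPM in rap2.12-2. Its groups did not overlap, and it was the only gene of the photosynthesis lists under an unadjusted p of 0.05 (log2 difference -0.48, SE 0.21, limma adjusted p = 0.72). Of 14 other photosystem II genes 9 were kept, 4 positive and 5 negative (median -0.01). PSBQA (AT4G21280), a protein of the oxygen-evolving complex, had 2.1, 1.45 and 2.15 TPM in Col-0, compared with 2.85, 2.77 and 4.81 TPM in rap2.12-2, without overlap and opposite in sign to PSBO1 and PSBP1 (log2 difference 0.61, SE 0.28, limma adjusted p = 0.75). PSBTN, a small photosystem II subunit, averaged 3.31 ± 0.986 and 1.85 ± 1.395 TPM, with overlap (limma adjusted p = 0.83). Over all kept genes, 6.03% were lower without overlap, like PSAF, and 6.62% higher, like PSBQA.

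Of 15 other Calvin cycle genes 9 were kept, 4 positive and 5 negative (median -0.08). PRK, GAPA-2, GAPB, SBPASE, HCEF1 and FBA2 averaged 0.03 to 0.71 TPM over the 6 libraries and were not kept. The highest was plastid triose phosphate isomerase (TIM) at 216 ± 33.5 TPM in Col-0 and 250 ± 35.8 TPM in rap2.12-2 (limma adjusted p = 0.87). CP12-1, a small regulator of the cycle, averaged 16.6 ± 3.94 and 13.8 ± 6.69 TPM (limma adjusted p = 0.88). FBA1, a plastid aldolase, averaged 1.11 ± 0.257 and 1.65 ± 0.844 TPM. The 9 plastid-encoded photosynthesis loci were all under the filter. Together they summed to 10.8 TPM in Col-0 replicate 1, the library high in organelle RNA, and to 1.32 to 4.81 TPM elsewhere. Organelle loci of every kind summed to only 157 to 537 TPM in those other libraries. The low plastid values therefore do not show that these loci were little expressed in the callus.

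Around ferredoxin, root-type electron carriers exceeded the leaf-type ones in both genotypes. Leaf plastids use the ferredoxins FD1 and FD2 with the reductases FNR1 and FNR2 to make NADPH, and root plastids use FD3 with RFNR1 and RFNR2 in the other direction, drawing on sugar oxidation. FD3 was at 169, 203 and 209 TPM in Col-0 and at 257, 236 and 202 TPM in rap2.12-2, and it exceeded FD1 and FD2 together by 4.097 to 7.57 times. The root-type reductases exceeded the leaf-type ones by 31.04 to 48.3 times. All 4 genes of the root-type list, which holds the dehydrogenase G6PD2 beside these carriers, were kept (median 0.16). FD3, RFNR1 and RFNR2 were positive and G6PD2 negative (log2 difference -0.11). None was called, with FD3 at 194 ± 21.7 and 232 ± 27.5 TPM (log2 difference 0.26, SE 0.16, limma adjusted p = 0.84) and RFNR2 at 165 ± 15.8 and 193 ± 18.8 TPM (limma adjusted p = 0.85). The leaf-type forms differed in sign. FD1 had 25.1, 21.5 and 19.7 TPM in Col-0 against 14.6, 13.8 and 23.8 TPM in rap2.12-2, overlapping through replicate 3 (log2 difference -0.36, SE 0.23, limma adjusted p = 0.85). FD2 (FED A) had 16.1, 13.9 and 17.9 TPM in Col-0 against 19.4, 17.8 and 17.9 TPM in rap2.12-2 (log2 difference 0.20, SE 0.17, limma adjusted p = 0.87). FNR1 averaged 6.72 ± 0.861 and 6.48 ± 1.32 TPM (log2 difference -0.05, limma adjusted p = 0.97), and FNR2, under the filter, 0.467 ± 0.283 and 0.763 ± 0.117 TPM. In the list of 10 nuclear genes of thylakoid electron transport and ATP synthase, 9 were kept, 4 positive and 5 negative (median -0.05).

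**Figure D5:**
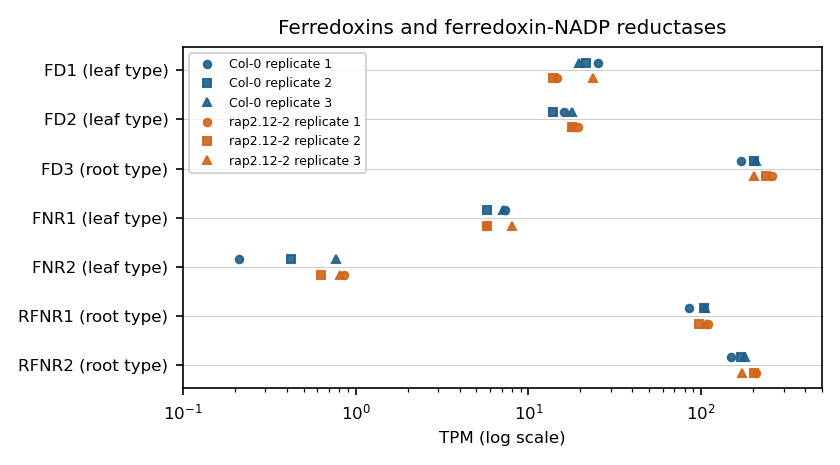
TPM on a log scale of leaf-type and root-type ferredoxins and ferredoxin-NADP reductases, 1 point per library, Col-0 in blue and rap2.12-2 in orange. FD3, RFNR1 and RFNR2 lie above every leaf-type form in each of the 6 libraries.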

How the data were processed

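Total RNA of hypocotyl callus was made into TruSeq RNA libraries, per the labels' protocols. The authors deposited 1 table of TPM for 31305 loci and 6 libraries, and all its columns were used. STAR 2.7.10a, RSEM 1.3.1 and the genome TAIR10 are named, without roles, in the submitters' processing notes. TPM is scaled by transcript length and library total, so abundant transcripts lower all others and depth is lost.

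Genes averaging at least 1 TPM (18629) were compared as log2(TPM + 1) with limma 3.58.1 in R 4.3.3 (mean-variance trend, Benjamini-Hochberg over kept genes, threshold 0.05, no replicate block). The step was tested on simulated data. Every p of a gene is limma's unless named otherwise. Names, overlaps and sequences come from the RefSeq annotation of TAIR10.1, as the table has no coordinates. Members and lists were chosen with earlier results of these data known. All members are named, with up to 4 genes of smallest p per pathway list (all kept genes where levels are compared) and defining markers. GNC, CGA1, the Calvin cycle genes under the filter and overlap partners were added after their values were seen.

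Alternatives were pseudocounts of 0.1 and 0.5, no filter or 5 TPM, other scalings, a block, no variance trend and each library left out.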

Additional observations from a re-analysis of the deposited data

How the results depend on the processing

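No member was called under any of the 16 alternatives, and their lowest limma adjusted p was 0.469, reached without rap2.12-2 replicate 3. Members under an unadjusted limma p of 0.05 numbered 3 without the variance trend, all lower in rap2.12-2. There was 1, also lower, with no filter, with the replicate block and without rap2.12-2 replicate 3. Over all kept genes, 8 were called higher and 5 lower in rap2.12-2. These counts were 3 and 3 with no filter, 3 higher with median-of-ratios scaling, 2 and 2 with the replicate block, 2 and 3 without the variance trend, and 2 to 19 higher and 2 to 6 lower with 1 library left out. Without both replicates 1, an alternative chosen after seeing the data, they were 0 and 0 in limma, and unadjusted p values under 0.05 numbered 512 for higher and 703 for lower. Same-numbered libraries correlated at 0.20, 0.35 and -0.11 in their deviations from the group means. Col-0 replicates 1 and 2 correlated best with their own number, and Col-0 replicate 3 with rap2.12-2 replicate 1 (0.23). Deviations from a mean of 3 libraries constrain each other, so these values cannot decide whether the numbers pair the samples. The member median of -0.07 ran from -0.28 to 0.052 with 1 library left out.

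Of 342 single-gene results under alternatives, 37 changed sign, none of them called, in 14 of the 22 kept members. With organelle genes removed and the rest rescaled to equal library totals, the log2 differences became -0.0078 for LHCA3, -0.058 for LHCA4, -0.023 for LHCB1.5, -0.028 for LHCB3, -0.060 for LHCB6 and -0.0079 for PETE2. With quantile scaling PSAD1 became 0.0025. Without both replicates 1, LHCB1.3 became 0.053, LHCB4.1 0.010, LHCB4.2 -0.063, PSAD1 0.52, PSBP1 0.25, PETE2 -0.012 and CHLH 0.012. With 1 library left out, LHCA3 ran from -0.22 to 0.29, LHCA4 from -0.049 to 0.14, LHCB1.3 from -0.70 to 0.011, LHCB1.5 from -0.27 to 0.28, LHCB3 from -0.31 to 0.32, LHCB4.2 from -0.082 to 0.24 and LHCB6 from -0.18 to 0.15. RCA ran from -0.20 to 0.021, PSAD1 from -0.40 to 0.24, PSBP1 from -0.50 to 0.12, PETE2 from -0.079 to 0.17, HEMA1 from -0.13 to 0.34 and CHLH from -0.45 to 0.024. The cause was not tested beyond the libraries named. TPM gives no depth, so a level listed at 0 does not show absence.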
